A study of Mus musculus with 8 samples.

Results

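The endoplasmic reticulum (ER) is the compartment in which secreted and membrane proteins are folded. The 32 genes described here encode its folding machinery and the unfolded protein response, the signalling that adjusts that machinery to the load of unfolded protein. They were chosen by gene symbol, with no threshold on their values, and each is represented by its brightest probe set among those with 1 gene symbol. The 32 genes were among 18193 genes with such a probe set. All 32 passed the level filter (the 40th percentile of the genes' means, or log2 7.72) and so belonged to the 10916 genes tested. They fell into 11 ER chaperones and cochaperones, 6 disulfide isomerases and oxidases, 9 stress sensors and regulators, and 6 genes of ER-associated degradation.

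The arrays measured RNA of inguinal mammary gland from virgin mice of 12 to 13 weeks. All animals, controls included, were gonadectomized, which removes the main source of estrogen. E2 groups were injected subcutaneously with 17β-estradiol and killed after 1, 3, 6, 12, 18 or 24 h, with 1 array for each of these times, and 2 vehicle groups, both labelled 24 h, gave 1 array each. Times are those of the sample titles, whereas every sample's description reads 24 h. The strain and any pooling of animals on an array are not stated in the sources used, and no dose is stated because its unit in the labels is unclear. For testing, the E2 arrays were grouped into windows, early with the 1, 3 and 6 h arrays (n = 3) and late with the 12, 18 and 24 h arrays (n = 3), set against the vehicle arrays (n = 2) and against each other. The 2 comparisons with vehicle share the same 2 vehicle arrays.

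Sensors in the ER membrane start the response in mammals. Ern1 (IRE1 alpha) splices the Xbp1 messenger, Eif2ak3 (PERK) phosphorylates the initiation factor eIF2 alpha and so favours translation of Atf4, and Atf6 is cut in the Golgi to release a transcription factor. Their targets include chaperones such as Hspa5 (BiP), which in turn binds the sensors and holds them inactive. The mammary gland relies on this machinery when its epithelium secretes milk, while the gland of a virgin mouse is mostly fat. Estrogen is known to raise XBP1 and STC2 in human breast cancer cells.

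The promoters are shown first because they mark which members carry a sequence through which ATF6 and XBP1 act. The ER stress response element (ERSE) was searched as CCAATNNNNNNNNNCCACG on both strands, from 250 bases before to 50 bases after the annotated start. It was found in 39 of 32851 promoters in the RefSeq table of mouse build GRCm38.p6, which is 0.119%, and in 9 of the 28 members with a promoter there. Hspa5, Hsp90b1, Calr, Canx, Dnajc3, Creld2, Pdia6, Ero1b and Syvn1 held a match, and Hsp90b1 held a pair of them. The sites are written 5′ to 3′ on the strand that reads CCAAT first, with the element in capitals and 10 bases on each side. In Hspa5 (strand +) the site is chr2:34772015-34772053, in Hsp90b1 (strand +, opposite to the gene) chr10:86705523-86705561, in Calr (strand +, opposite to the gene) chr8:84847065-84847103, in Pdia6 (strand +) chr12:17266481-17266519 and in Syvn1 (strand +) chr19:6046522-6046560.
Hspa5: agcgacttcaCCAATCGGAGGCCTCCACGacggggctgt
Hsp90b1: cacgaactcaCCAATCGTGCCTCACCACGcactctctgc
Calr: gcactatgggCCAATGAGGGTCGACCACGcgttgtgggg
Pdia6: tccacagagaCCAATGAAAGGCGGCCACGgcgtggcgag
Syvn1: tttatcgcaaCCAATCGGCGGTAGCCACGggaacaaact
The Hspa5 element ends 47 bases before the start and that of Syvn1 ends 26 bases before it. A match describes the letters of the window and is not evidence of binding.

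Of the members whose values lay farthest from vehicle, Ppp1r15a held another motif upstream, and Trib3, Ern1 and Stc2 held none of those searched. Herpud1, whose values lay less far from vehicle, was added to them. Of the 120 bases before the start, Ppp1r15a (chr7:45526269-45526388, strand -) held the cAMP response element TGACGTCA, which ATF and CREB proteins bind. Herpud1 (chr8:94386309-94386428, strand +) held ERSE-II (ATTGG, any 1 base, then CCACG) and the reverse complement of the C/EBP-ATF composite element TGATGNAA. Both stretches are given in the direction of the gene, with these elements in capitals.
Ppp1r15a: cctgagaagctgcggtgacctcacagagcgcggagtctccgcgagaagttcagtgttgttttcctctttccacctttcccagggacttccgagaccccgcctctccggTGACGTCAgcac
Herpud1: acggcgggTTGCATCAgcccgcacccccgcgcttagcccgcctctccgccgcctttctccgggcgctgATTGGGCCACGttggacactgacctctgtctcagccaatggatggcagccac
Over all 32851 promoters, TGACGTCA occurred in 1.79%, ERSE-II in 0.0365% and TGATGNAA in 3.97%. ERSE-II was also present in Dnajb11, and TGATGNAA in Trib3, in both cases after the start. The upstream stretches of Trib3 (chr2:152344061-152344180, strand -), Ern1 (chr11:106487797-106487916, strand -) and Stc2 (chr11:31370062-31370181, strand -) are given in the direction of the gene because these genes also lay far from vehicle, and none of the 6 motifs searched was found in them.
Trib3: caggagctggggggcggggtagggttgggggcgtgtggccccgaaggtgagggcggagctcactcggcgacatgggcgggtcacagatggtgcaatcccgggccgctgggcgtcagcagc
Ern1: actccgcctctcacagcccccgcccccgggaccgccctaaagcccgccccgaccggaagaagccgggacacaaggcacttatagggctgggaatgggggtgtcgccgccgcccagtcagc
Stc2: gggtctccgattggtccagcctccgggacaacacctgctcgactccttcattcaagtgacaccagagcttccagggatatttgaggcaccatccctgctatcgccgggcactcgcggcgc
The palindromic estrogen response element GGTCANNNTGACC occurred in 23 promoters (0.07%) and the unfolded protein response element TGACGTGG in 222 (0.676%), with 0 members for each. The absence of a match says only that these letters are not in the windows searched. Matches of different motifs did not overlap one another in these members.

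No member passed the test in any comparison, and most values lay close to vehicle after E2. The values at least 0.30 from the vehicle mean on the log2 scale were those of Ppp1r15a and Herpud1 at 1 and 3 h, of Trib3 at 3 h, of Ern1 at 3 and 6 h, of Ero1a at 6 h and of Stc2 at 12 h. Ppp1r15a, Trib3 and Ern1 were 1.37-fold, 1.43-fold and 1.39-fold above vehicle on the 3 h array, Herpud1 1.28-fold, and Stc2 was 1.37-fold above vehicle on the 12 h array alone. The chaperones and isomerases lay within about 0.3 of the vehicle mean on the log2 scale at every time. The plot of all 32 members on every array shows this pattern.

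**Figure D1:**
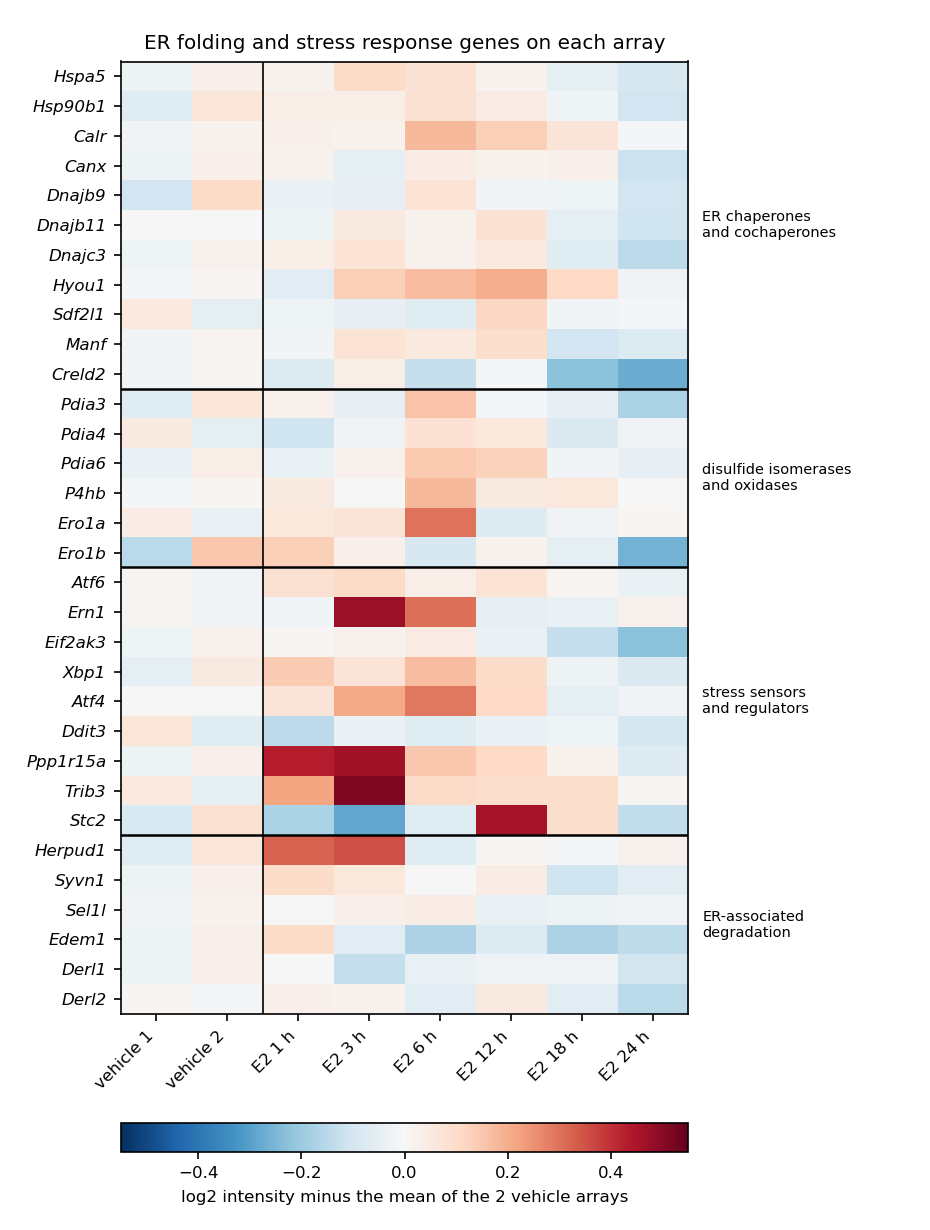
Heat map of the 32 genes (rows, grouped by role) on the 8 arrays (columns). The colour gives log2 intensity minus the mean of the 2 vehicle arrays, and the darkest red cells are Trib3, Ern1 and Ppp1r15a at 3 h (0.52, 0.48 and 0.46), Stc2 at 12 h (0.46) and Ppp1r15a at 1 h (0.43).

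The 8 arrays had median intensities between 173.9 and 180.49, and the 2 vehicle arrays differed by a median of 0.077 (log2, absolute) over all genes tested and 0.064 over the members. Adipocyte, luminal epithelial and myoepithelial markers were measured above the level filter (8 of 10, 13 of 14 and 5 of 8). Of the myoepithelial markers, Krt5, Oxtr, Acta2, Myh11 and Cnn1 passed, whereas Krt14, Krt17 and the factor Trp63 lay below it. Mean log2 levels of the 13 skeletal muscle markers ranged from 9.91 to 10.57 on the early and from 9.46 to 10.26 on the late E2 arrays, against 9.09 and 9.45 on the vehicle arrays. The 13 luminal markers averaged between 9.68 and 9.84 on the late and between 9.33 and 9.52 on the early arrays, against 9.45 and 9.47 on vehicle. The 6 B lymphocyte markers were at 9.43 and 9.46 at 18 and 24 h and between 9.75 and 10.02 on the other E2 arrays, against 9.73 and 10.01 on vehicle. In such bulk tissue, fewer cells of a type and less RNA per cell cannot be told apart.

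Among the stress sensors and regulators, Ppp1r15a, the phosphatase subunit (GADD34) that reverses the block on translation set by PERK, was high on the first 2 E2 arrays. From the earliest to the latest time its intensities were 653.6, 664.2, 538.5, 523.6, 490.2 and 461.4 in E2 glands, against 473.1 and 495.8 in vehicle glands. The 4 arrays from 1 to 12 h lay above both vehicle arrays, the 18 h array lay between them and the 24 h array below them. On the log2 scale its early window averaged 9.27 ± 0.17 (SD, n = 3), against 8.92 ± 0.05 in vehicle (n = 2), a difference of 0.35 ± 0.09 (SE). That was the smallest p of any member in this comparison, and limma's adjusted p over all genes was 0.56.

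Trib3, a pseudokinase induced by ATF4 and CHOP, gave 228.6, 283.1, 211.8, 210.6, 211.4 and 198.2 in E2 glands over the same times, against 205 and 190.6 in vehicle glands. The 3 h value stood 1.43-fold above the vehicle mean, and all other E2 arrays except that at 24 h were also above both vehicle arrays. Its second probe set gave differences of 0.25 at 1 h and 0.53 at 3 h on the log2 scale, beside 0.21 and 0.52 for the brightest. The brightest had a mean of 7.75 over the 8 arrays, just above the level filter of 7.72. Its vehicle values (7.68 and 7.57) lay below that level and its 3 h value (8.14) above it. Its mean passed the filter only through the high 3 h array, a limit on every count and test below that includes Trib3. The second probe set, with a mean of 7.09, lay below the filter. Ern1, the IRE1 alpha sensor, had 554.7, 779.1, 695.6, 543.6, 549.2 and 573.6 in E2 glands, against 566.2 and 554.8 in vehicle glands. Its 3 h and 6 h arrays were high and the other 4 were within 0.04 of the vehicle mean on the log2 scale. The second brightest of the 5 Ern1 probe sets differed less, by 0.26 at 3 h and 0.19 at 6 h, and the dimmest 3 reached at most 0.13 at those times.

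Atf4, the transcription factor whose translation PERK favours, had intensities of 1525, 1673, 1773, 1564, 1396 and 1425 in E2 glands, against 1444 and 1451 in vehicle glands. The E2 values were above both vehicle arrays at 1 to 12 h, highest at 6 h (0.29 on the log2 scale), and below both at 18 and 24 h. One of its other probe sets gave 0.17 at 3 h and 0.14 at 6 h, and the dimmest gave -0.08 and 0.07. Herpud1, a membrane protein of ER-associated degradation, had 1745, 1787, 1334, 1397, 1394 and 1414 in E2 glands, against 1330 and 1459 in vehicle glands. Only its 1 h and 3 h arrays lay outside the vehicle values, by 0.32 and 0.36 from their mean, and its second probe set gave 0.25 and 0.34.

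Stc2, which encodes the secreted glycoprotein stanniocalcin 2 and is induced by ER stress, followed another course. Its intensities were 1534, 1415, 1653, 2373, 1851 and 1570 in E2 glands, against 1630 and 1835 in vehicle glands. It lay below both vehicle arrays at 1, 3 and 24 h and above both at 12 and 18 h. All 3 of its probe sets were lowest at 3 h (-0.29, -0.33 and -0.35) and highest at 12 h (0.46, 0.36 and 0.34). The mean of the luminal markers given above was also highest at 12 h (9.84), but the markers were not uniform. Among the E2 arrays, Krt7, Krt8, Krt18, Cldn7, Elf5, Spint2 and Wfdc18 were highest at 12 h. Krt19 and Epcam were highest at 24 h, Cldn3, Cdh1 and Muc1 at 18 h, and Cldn4 at 3 h.

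**Figure D2:**
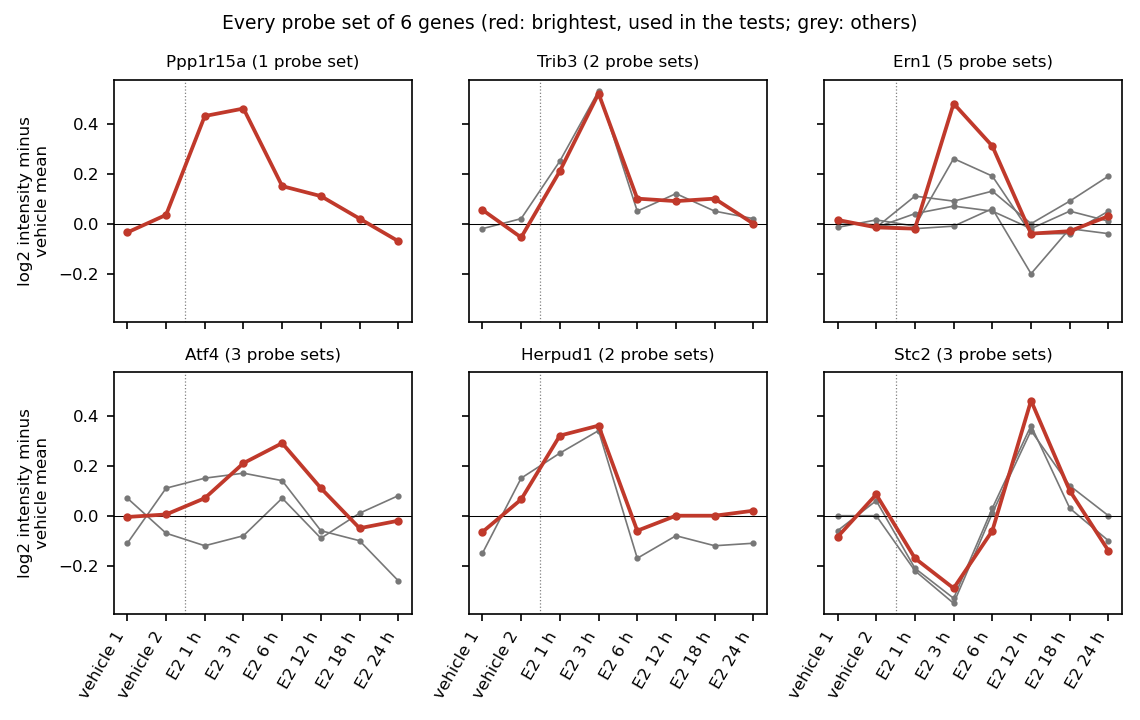
Log2 intensity minus the vehicle mean (vertical axis) on the 8 arrays (horizontal axis) for every probe set of 6 genes, with the brightest in red and the others in grey. The probe sets of Trib3, Herpud1 and Stc2 follow one another, and those of Ern1 and Atf4 include dim ones that stay near vehicle at 3 h.

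The remaining regulators lay closer to vehicle. Xbp1, the transcription factor made active by IRE1 splicing, had intensities of 4111, 3925, 4202, 4019, 3669 and 3545 in E2 glands, against 3605 and 3876 in vehicle glands. These values do not separate spliced from unspliced messenger. They were above both vehicle arrays at 1 to 12 h and below both at 24 h, with a largest difference of 0.17 at 6 h. The other Xbp1 probe sets, from bright to dim, gave 0.11, 0.10 and -0.12 at 1 h and 0.18, 0.01 and -0.03 at 6 h. Atf6 differed by at most 0.10 (3 h). Ddit3 (CHOP), a transcription factor tied to cell death under lasting stress, was lowest at 1 h (-0.15), and its dimmer probe set gave -0.39 there. Eif2ak3 (PERK) had 701.8, 709.1, 720.9, 681.5, 638.4 and 595.6 in E2 glands, against 685.4 and 710.3 in vehicle glands. Its 3 late arrays were below both vehicle arrays, with -0.23 at 24 h, but its 2 dim probe sets gave 0.07 and 0.01 at that time.

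The ER chaperones showed small and mixed differences. Hspa5 (BiP), the main Hsp70 chaperone of the ER lumen and the classical readout of the unfolded protein response, gave 5133, 5427, 5359, 5131, 4891 and 4763 in E2 glands, against 4960 and 5190 in vehicle glands. Its largest difference from the vehicle mean was 0.10, at 3 h, where its other probe sets gave -0.02 and -0.06. At 24 h 1 of its 3 probe sets, with a vehicle gap of 0.20, ran the other way (0.07, beside -0.09). Hsp90b1 (GRP94), the Hsp90 of the ER, lay between the vehicle arrays at 1, 3, 12 and 18 h and just outside them at 6 and 24 h (0.09 and -0.10). Calr, a lectin chaperone of glycoproteins, had 7511, 7410, 8321, 8029, 7714 and 7290 in E2 glands, against 7217 and 7413 in vehicle glands. Its E2 arrays stood above both vehicle arrays at 1, 6, 12 and 18 h, and all 3 probe sets gave between 0.18 and 0.20 at 6 h. Canx, its membrane-bound relative, differed by no more than 0.05 until 18 h and by -0.13 at 24 h.

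The cochaperones of BiP were similar. Dnajb9, Dnajb11 and Dnajc3, J-domain proteins that stimulate its ATPase, differed from vehicle by at most 0.08 up to 18 h, and by -0.10, -0.11 and -0.15 at 24 h. Hyou1 (GRP170), which exchanges the nucleotide on BiP, had 952.9, 1093, 1119, 1148, 1073 and 983.3 in E2 glands, against 990.7 and 1006 in vehicle glands. Its 4 middle arrays were above both vehicle arrays, with the highest value at 12 h (0.20, 1.15-fold), but a second probe set of like brightness, whose vehicle arrays differed by 0.32, gave -0.02 at that time. Sdf2l1, a partner of Dnajb11, and Manf, a secreted protein of the ER stress response, were highest at 12 h (0.11 and 0.10). Creld2, another ER stress-induced protein with isomerase activity, was lowest at 18 and 24 h, with 353.3 and 341 in E2 glands against 406.5 and 415.2 in vehicle glands.

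The disulfide isomerases and oxidases lay apart from vehicle mainly at 6 h. At that time 5 of 6 were above both vehicle arrays and the median difference was 0.147, while over all genes tested the median was 0.011 and 4211 of 10916 were above both. Markers of some cell types also lay above both vehicle arrays at 6 h, 13 of 13 for skeletal muscle (median 1.323, with 6 called by limma), 7 of 8 for macrophages (0.122), 6 of 8 for fibroblasts (0.07) and 3 of 5 for myoepithelium (0.133). Median differences were negative for endothelial (-0.095), luminal (-0.068), adipocyte (-0.034), B lymphocyte (-0.108) and T lymphocyte markers (-0.095). The part of these cell types in the 6 h values was not tested. Ero1a, the oxidase that restores oxidised isomerase, had 956.6, 963.9, 1125, 872, 904.1 and 923.2 in E2 glands, against 942.5 and 890.6 in vehicle glands. Its 6 h array was the highest by a wide margin (0.30), and the other 2 probe sets gave 0.24 and 0.27. P4hb, protein disulfide isomerase itself, was highest at 6 h as well, at 7196, against 6298 and 6387 in vehicle glands. Pdia3, which works with calnexin and calreticulin, Pdia6 and Pdia4 gave 0.15, 0.14 and 0.08 at 6 h. The dimmer probe sets of these genes gave 0, 0.11 and 0 at that time. Ero1b, the related oxidase, was the exception (-0.09 at 6 h), and its vehicle arrays, at 508 and 624.8, were the farthest apart of any member. The dimmer Ero1b probe sets gave -0.37 and -0.03 at 6 h.

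The other genes of ER-associated degradation, in which misfolded proteins are sent back to the cytosol for destruction, stayed within 0.18 of vehicle. Syvn1 (HRD1), the ubiquitin ligase of the pathway, was highest at 1 h (0.10) and lowest at 18 h (-0.11). Sel1l, its membrane partner, stayed within 0.04. Edem1, which directs glycoproteins to degradation, was 0.10 above vehicle at 1 h and below both vehicle arrays on the other 5 E2 arrays (-0.06 at 3 h to -0.18 at 6 h). A second Edem1 probe set of like brightness gave -0.11 at 3 h and -0.01 at 6 h. Its late window averaged -0.05 from vehicle, beside -0.13 for the brightest. The channel proteins Derl1 and Derl2 were lowest at 3 h (-0.13) and at 24 h (-0.15), and for Derl1 the other 3 probe sets gave late minus early differences of 0.10 to 0.14, beside 0.01 for the brightest.

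**Figure D3:**
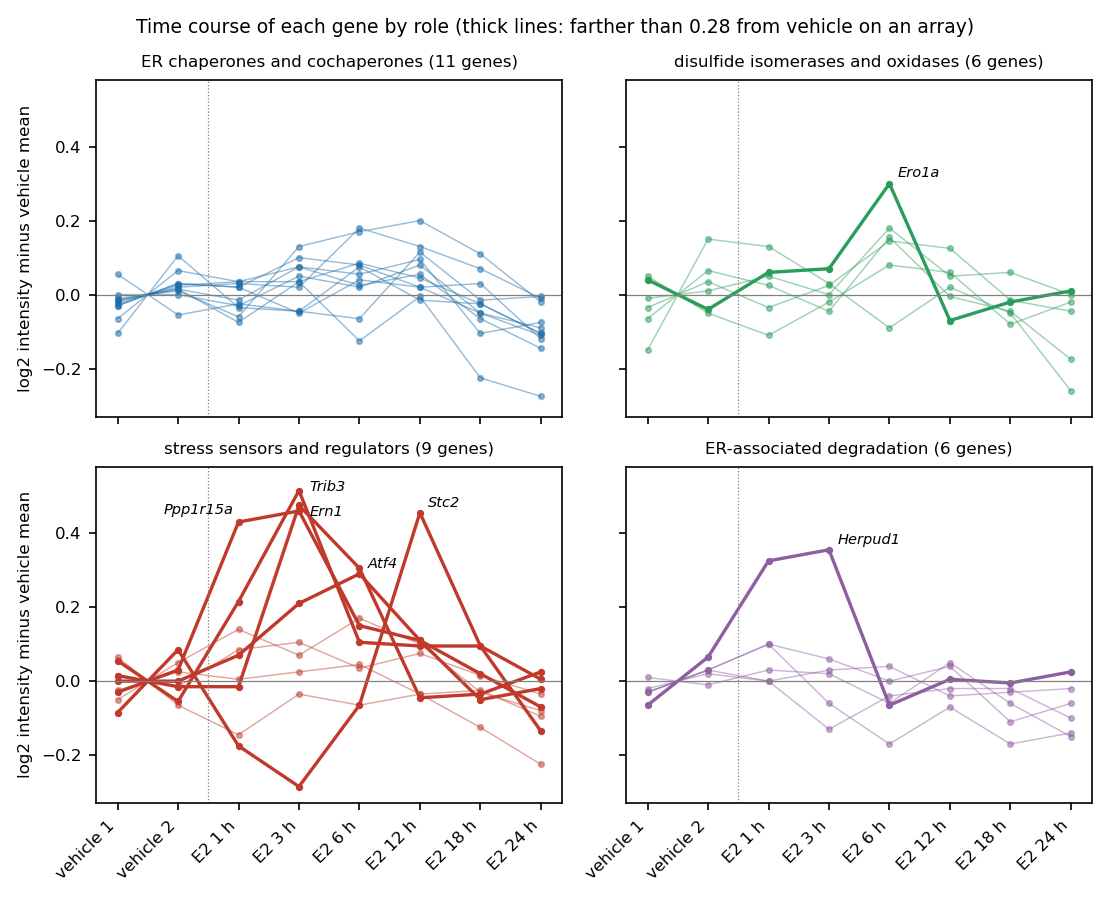
Log2 intensity minus the vehicle mean (vertical axis) on the 8 arrays (horizontal axis) for each gene, 1 panel per role, with genes farther than 0.28 from vehicle on any array drawn thick and named. The 11 chaperones all lie within 0.28 of vehicle, whereas 5 of the 9 regulators reach beyond it.

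In the early window against vehicle, 23 of 32 members were higher and the median difference was 0.042, while 6291 of 10916 genes were higher with a median of 0.013. The regulators had the largest median of the 4 roles (0.125), followed by the isomerases (0.043), the chaperones (0.041) and the degradation genes (0.01). These medians were not tested against each other. At an unadjusted p below 0.05 there were 4 members (12.5%), all higher, and 587 of all genes (5.38%). These members were all regulators (Ppp1r15a, Atf4, Trib3 and Ern1, at 0.35, 0.19, 0.28 and 0.26). Trib3 had passed the level filter only through its 3 h array. After Benjamini-Hochberg adjustment in limma, 0 members were called, as were 0% of all genes. Early and vehicle values did not overlap for 6 members, all higher (Ero1a, Atf6, Xbp1, Atf4, Ppp1r15a and Trib3), or 18.8%, close to the 19.9% of all genes. Trib3 is counted there under the same limit of the filter. Skeletal muscle markers, 13 of 13 higher on average in the early window, were the cell type markers farthest from vehicle in this comparison. With their mean as a covariate the Ppp1r15a difference was 0.63, with limma's adjusted p at 0.0581. That mean was higher on every early array (9.91 to 10.57) than on the vehicle arrays (9.09 and 9.45). The covariate cannot be separated fully from the window, and no conclusion is drawn from this fit.

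In the late window against vehicle, 20 of 32 members were lower, with a median of -0.026, while the median of all genes was -0.01. limma called 0 members and 0% of all genes. No member had an unadjusted p below 0.05, a level that 830 of all genes reached, and the smallest adjusted p of a member was 0.648. For 3 members (Eif2ak3, Sel1l and Edem1) all late arrays were below both vehicle arrays, and separation in either direction was seen for 9.38% of members and 24.4% of all genes.

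The late window against the early one is the comparison with 3 arrays on each side and no vehicle array in the difference. In it 26 of 32 members were lower, with a median of -0.072, and 6503 of 10916 genes were lower with a median of -0.025. limma called 0 members and 0.55% of all genes. Ppp1r15a averaged 8.94 ± 0.09 in the late and 9.27 ± 0.17 in the early window (SD, n = 3 each), a difference of -0.33 ± 0.08 (SE) with an adjusted p of 0.112, the smallest of any member. Ern1 (-0.27), Trib3 (-0.21), Herpud1 (-0.20), Atf4 (-0.18), Ero1a (-0.17) and Eif2ak3 (-0.16) followed among the lower members, with adjusted p between 0.189 and 0.301. With the luminal markers' mean as a covariate, Ern1 and Ero1a turned positive, at 0.25 (adjusted p = 0.477) and 0.07 (adjusted p = 0.83). Atf4 was then at -0.10, and Ppp1r15a, Herpud1 and Eif2ak3 were at -0.65, -0.44 and -0.28. The luminal means of the 2 windows did not overlap (9.33 to 9.52 early, 9.68 to 9.84 late). This covariate cannot be separated fully from the windows, and no conclusion is drawn from the values with it. With the plasma cell and B lymphocyte markers, Ppp1r15a, Herpud1 and Eif2ak3 were at -0.20, -0.10 and -0.09. Without the 3 h array Ern1, Trib3 and Herpud1 were at -0.16, -0.09 and -0.12, and without the 6 h array Ero1a was at -0.09. Stc2 was the member with the largest positive difference, averaging 10.89 ± 0.30 in the late and 10.58 ± 0.11 in the early window, a difference of 0.31 ± 0.13 (SE) with an adjusted p of 0.233. Its late arrays ranged widely, with the 12 h array high and the 24 h array low, and without the 12 h array the difference was 0.16 (adjusted p = 0.318). With the luminal markers' mean as a covariate, under the same limit, the Stc2 difference turned negative, at -0.17 (adjusted p = 0.77).

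At an unadjusted p below 0.05 there were 7 members in this comparison, 6 lower and 1 higher, and 2089 of all genes, a share of 21.9% of the members and 19.1% of all genes. The 2 windows did not overlap for 7 members, 6 lower and 1 higher, or 21.9%, beside 24% of all genes. Both shares of the members were near the background. Calls depended on single arrays. Without the 1 h array Ern1 was called (adjusted p = 0.0153, with 232 genes called in all), and without the 6 h array Ppp1r15a (0.0291) and Herpud1 (0.0382) were called, with 69 genes in all. Without the 18 h or the 24 h array, 0 genes of the whole table were called.

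**Figure D4:**
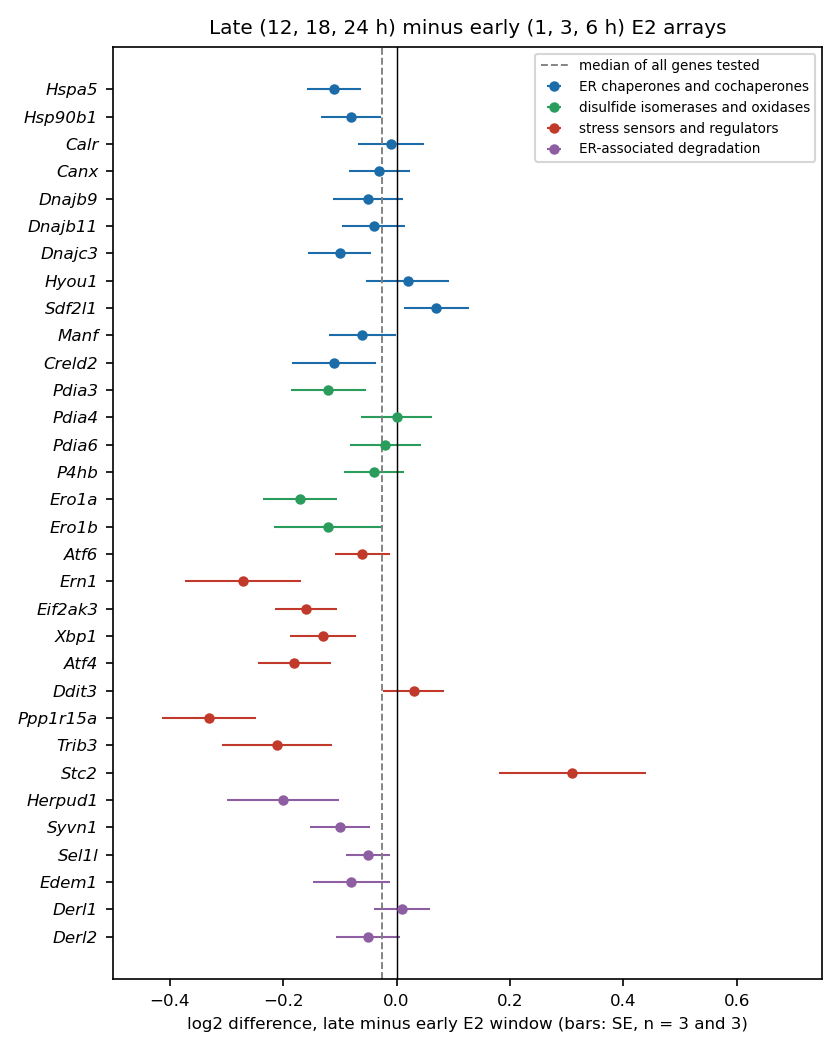
Late minus early E2 window (log2, horizontal axis) for each of the 32 genes, with bars for the SE from limma (n = 3 arrays in each window) and colours for the role. Most points lie left of 0, Ppp1r15a is lowest (-0.33), Stc2 is highest (0.31), and the dashed line gives the median of all genes (-0.025).

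At single times, each represented by 1 array that is assumed to vary as the vehicle arrays do, limma called 0 members at any time. Of all genes it called 0.0641%, 0.595%, 0.366% and 0.0366% on the 1, 3, 6 and 12 h arrays, and 0% on the 18 h and 24 h arrays. The smallest adjusted p of members were those of Ern1 (0.101), Ppp1r15a (0.124) and Trib3 (0.19) at 3 h. With each array first centred on its median, these 3 genes were called at 3 h, where 278 genes were called in all (65 as reported), and Ppp1r15a at 1 h, among 106 (7 as reported). At an unadjusted p below 0.05 the 6 arrays in order of time had 2, 6, 3, 2, 1 and 2 members, and 300, 713, 869, 477, 637 and 699 of all genes.

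By size alone, 0 members were at least 1.5-fold (0.58 on the log2 scale) from both vehicle arrays at any time. The shares of all genes that were so far were 0.321%, 0.797% and 0.742% on the 1, 3 and 6 h arrays, and 0.211%, 0.229% and 0.22% on the 12, 18 and 24 h arrays. At a fold of 1.3 there was 1 member at 1 h (Ppp1r15a), there were 3 at 3 h (Ern1, Ppp1r15a and Trib3) and 0 at the other times. All 4 were higher in E2 glands. Trib3 had passed the level filter only through its 3 h array. The shares of all genes at that fold were 0.724%, 1.91%, 1.64%, 0.595%, 0.66% and 0.715% from 1 to 24 h. Stc2 at 12 h was just short of it, at 0.54 and 0.37 from the vehicle arrays where 0.38 was needed.

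The direction of small differences was not the same at all times. At 6 h 20 of 32 members (62.5%) were above both vehicle arrays, beside 38.6% of all genes. At 24 h 24 of 32 (75.0%) were below both, beside 46.4% of all genes. All 13 skeletal muscle markers were above both vehicle arrays at 6 h and also at 24 h (medians 1.323 and 0.926). The 24 h array was the lowest of the 6 E2 arrays for 17 members (53.1%), beside 25.9% of all genes, and the highest for 0, beside 13.4% of all genes. At 24 h the chaperones had a median difference of -0.099, with 9 of 11 below both vehicle arrays, and all genes had a median of -0.024. B and T lymphocyte markers were also below both vehicle arrays at 24 h, 6 of 6 each, with mean differences of -0.415 and -0.265. The vehicle arrays themselves differed by means of -0.279 and -0.213 for these markers. Below both at 24 h were also 6 of 8 endothelial, 5 of 8 adipocyte and 5 of 8 plasma cell markers. In contrast, 10 of 13 luminal and 4 of 5 myoepithelial markers were above both. The part of these cell types was not tested. The members' late minus early median (-0.072) was -0.149 with the luminal markers as a covariate, whose means did not overlap between the windows. It was -0.1 with the skeletal muscle, and -0.01 with the plasma cell and B lymphocyte markers as a covariate. Over the 6 E2 arrays the range of a member had a median of 0.21, the same as over all genes.

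Lists of related genes had differences of similar size. Of 28 tested genes of other ER folding and glycoprotein quality control, 23 were higher in the early window than in vehicle and 22 lower in the late than in the early window, with medians of 0.027 and -0.041. Tmx1, a membrane-bound thioredoxin of the ER, had a late minus early difference of -0.16 with an adjusted p of 0.11, and Erp44, which retains oxidases in the ER, had -0.13. Of 26 translocon, signal peptidase and export genes, 24 were higher in the early window than in vehicle and 25 lower in the late than in the early window, with medians of 0.065 and -0.071. Kdelr1, the receptor that returns ER proteins, and Ssr3, a translocon subunit, both had -0.18. Of 16 other degradation genes, 12 were lower in the late than in the early window, Edem3 by the most (-0.18).

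The 22 tested genes known as ATF4 or integrated stress response targets held the largest single differences. Gadd45a, a growth arrest gene, differed by 0.53, 0.74 and 0.49 from vehicle at 1, 3 and 6 h and by -0.54 between the late and the early window, with limma's adjusted p at 0.0566. Slc7a5, an amino acid transporter, was 0.46 above vehicle at 3 h, and Cebpb, a transcription factor, was 0.54 above it at 1 h. The vehicle arrays differed by 0.39 for Atf3, more than its early difference of 0.25. Over the whole list 15 of 22 were lower in the late than in the early window, with a median of -0.029. Among 16 cytosolic heat shock genes 12 were lower in the late window, including the cochaperone Dnajb4 (-0.30, adjusted p = 0.0639), whereas Hspa1b, an inducible Hsp70, was higher (0.28, adjusted p = 0.231). limma called 0 genes of these 5 lists in any window comparison.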

How the data were processed

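RNA was extracted with Trizol and biotin-labelled for Affymetrix arrays, per the labels' protocols. GCOS 1.0 and RMA are listed in the submitters' processing notes, with no role given. The deposited values are linear intensities of 45101 probe sets, already on 1 scale across the arrays, and log2 was taken of them. Members and lists were chosen with earlier results of these data known. Genes were named through the platform annotation table, using the brightest of the probe sets with 1 symbol. For the related lists, up to 4 genes were named, those with the largest absolute late minus early difference. limma 3.58.1 (R 4.3.3) was fitted with 3 window means (5 residual degrees of freedom, mean-variance trend) or, for single times, 7 group means (1 residual degree of freedom), with two-sided tests and Benjamini-Hochberg adjustment over 10916 genes at 0.05. The p-values measure array-to-array spread only, possibly technical, and the windows count change between their times as spread. Arrays carry no read depth, so their number limits the precision. Alternatives covered the filter, normalization, probe set choice, limma settings, marker covariates, single arrays and the fold. Promoters came from RefSeq (GRCm38.p6), for 28 members, and the cAMP and estrogen response elements were added after the data were seen.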

Additional observations from a re-analysis of the deposited data

Results flagged for a closer look

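For 2 members every early E2 array lay above the vehicle mean and every late E2 array below it. Eif2ak3 (PERK) averaged -0.13 from vehicle in the late window and 0.03 in the early window (log2), a late minus early difference of -0.16 with limma's adjusted p at 0.189. Sel1l averaged -0.03 in the late and 0.02 in the early window, a difference of -0.05 with an adjusted p of 0.459, and its vehicle arrays were themselves 0.04 apart. Neither difference passed the test.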

How the results depend on the processing

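As reported, 0 members were called, and in the early and late windows against vehicle that held under each of 20 alternatives. Late minus early calls numbered 8 with array weights (Hspa5, Creld2, Ern1, Eif2ak3, Xbp1, Atf4, Ppp1r15a and Syvn1, among 2214 genes), 1 with the skeletal muscle covariate (Ppp1r15a, adjusted p = 0.0102, among 1021 genes), and 0 to 2 when 1 array was left out. Over all genes that count was 60 as reported and ranged from 0 to 2214. With arrays centred on the median, 1 member was called at 1 h (106 genes in all, 7 as reported) and 3 at 3 h (278 in all, 65 as reported). At a fold of 1.3, 4 pairs of a member and a time passed. The members' median, early against vehicle, was 0.136 with the muscle covariate, 0.013 with the mean of probe sets and 0.018 to 0.083 when 1 array was left out, the ends being those without vehicle 1 and without vehicle 2 (0.042 as reported). Late against vehicle it was 0.046 with the muscle and -0.093 with the luminal covariate, 0.007 after quantile normalization and -0.052 to -0.002 when 1 array was left out, those at 12 h and at 24 h (-0.026 as reported). Late minus early it was -0.029 after quantile normalization, -0.149 with the luminal and -0.01 with the plasma cell and B lymphocyte covariate, and -0.112 to -0.041 without the 12 h or the 24 h array (-0.072 as reported). The causes of these shifts were not tested. Luminal means did not overlap between the early and late windows, and muscle means on all E2 arrays lay above both vehicle arrays. Fits with these covariates therefore cannot fully separate the markers from the windows. With 1 array per time and 2 vehicle arrays, time, animals and array cannot be told apart. No paired analysis was possible because the E2 groups have 1 array each and share no more than 1 replicate number with vehicle.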
